A study of Mus musculus with 12 samples.

Results

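The BMP ligands *Bmp2*, *Bmp4* and *Bmp7*, the secreted antagonists *Nog*, *Chrd*, *Grem1* and *Fst*, and the target genes *Id1*, *Id2* and *Id3* were followed in mouse embryonic stem cells (ESCs) that lose the Polycomb protein Ring1B. They were chosen by gene symbol. These 10 genes have 15 probe sets among the 45037 on the array, and all of them passed the filter on low signals, which left 16432 genes. Every line was *Ring1A-/-; Ring1B fl/fl; R26::CreERT2* by its labels. 4-hydroxytamoxifen (OHT; 800 nM for 24 h) activates the Cre recombinase that deletes the endogenous *Ring1B*. After OHT, Ring1B comes only from a stably expressed construct. This was Ring1B (I53S) in lines #1 and #4 and Ring1B (I53A) in line #1, here the 3 mutant lines, an empty vector in 1 mock line, and WT Ring1B in lines #1 and #3, the 2 WT lines. Isoleucine 53 lies in the RING domain through which Ring1B meets its E2 enzyme. RNA was measured on 12 arrays, on day 2 of OHT treatment (OHT+) and without it (OHT-), with 1 array per line and condition. Each line therefore stands for 1 culture, and I53A and mock are 1 line each.

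BMPs are secreted ligands of the TGF-beta superfamily. They bind paired type I and type II serine/threonine kinase receptors, which phosphorylate Smad1, Smad5 and Smad8, and these enter the nucleus with Smad4. Noggin, Chordin, Gremlin 1 and Follistatin bind ligands outside the cell and keep them from their receptors. The *Id* genes, which encode helix-loop-helix proteins that lack a DNA-binding region and hold other helix-loop-helix factors inactive, are the best known immediate targets, and in mouse ESCs BMP4 with LIF sustains self-renewal through them. Many developmental regulators, members of this pathway among them, are bound by Polycomb proteins in ESCs.

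The values are log2 signals after quantile normalization. The study's question for these lines was whether repression needs the H2A ubiquitination activity that the I53 substitutions impair. *Rnf2*, which encodes Ring1B, had log2 differences of -0.29 to 0.20 between OHT+ and OHT- over the 6 lines. *Ring1*, which encodes Ring1A, read log2 signals of 5.24 to 6.49 on the 12 arrays, above the filter threshold of 3.94, in lines labelled *Ring1A-/-*. No source used here places the probe sets of either gene relative to the deleted exons, and these signals are therefore no test of deletion. All 10 ESC markers were measured, with mean log2 signals per array of 11.05 to 11.39. Their median change with OHT was -0.18, -0.29 and -0.21 in I53S #1, I53S #4 and I53A, -0.19 in the mock line, and 0.02 and 0.07 in WT #1 and WT #3. In the mutant lines 3 of the 10 had fitted changes above 0, and the only one called was *Klf4*, which was higher (0.55, adjusted p = 0.0354, limma). For mutant minus WT 1 of the 10 was above 0, and none was called. The part of these differences in the BMP values was not tested. The lines may have been grown on irradiated fibroblast feeders or on gelatin, which the labels do not separate. Of 18 fibroblast markers 16 were tested, and their summed linear signal was 8058 and 5008 (OHT+ and OHT-) in I53S #1, 4873 and 4158 in I53S #4, 2430 and 2295 in I53A, 7055 and 4446 in the mock line, 2338 and 2314 in WT #1, and 2765 and 2526 in WT #3. In bulk RNA, more cells of a type and more RNA per cell cannot be told apart.

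*Bmp7*, *Id1* and *Id2* rose after OHT in the mutant lines (limma, adjusted p under 0.05 over all genes), by 1.84-fold, 1.39-fold and 1.94-fold. No gene of the 10 fell. Thus 3 of 10 were called, all of them higher, where of all genes tested 6.46% were called, 4.91% higher and 1.55% lower. The change after OHT was above 0 in every mutant line for 6 of the 10 (*Bmp4*, *Bmp7*, *Fst*, *Id1*, *Id2* and *Id3*), against 24% of all genes. On the values as deposited, without quantile normalization, this held for 4 of them (*Bmp7*, *Id1*, *Id2* and *Id3*), against 13.6% of genes. Over the 10 genes the median log2 change after OHT was 0.39 for mutant, 0.66 for mock and 0.05 for WT lines. Quantile normalization holds the median of all genes near 0 in each class. On the values as deposited the median of the 10 genes was 0.31 for mutant, 0.34 for mock and 0.06 for WT lines, beside medians over all genes of -0.13, -0.34 and 0.01.

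**Figure D1:**
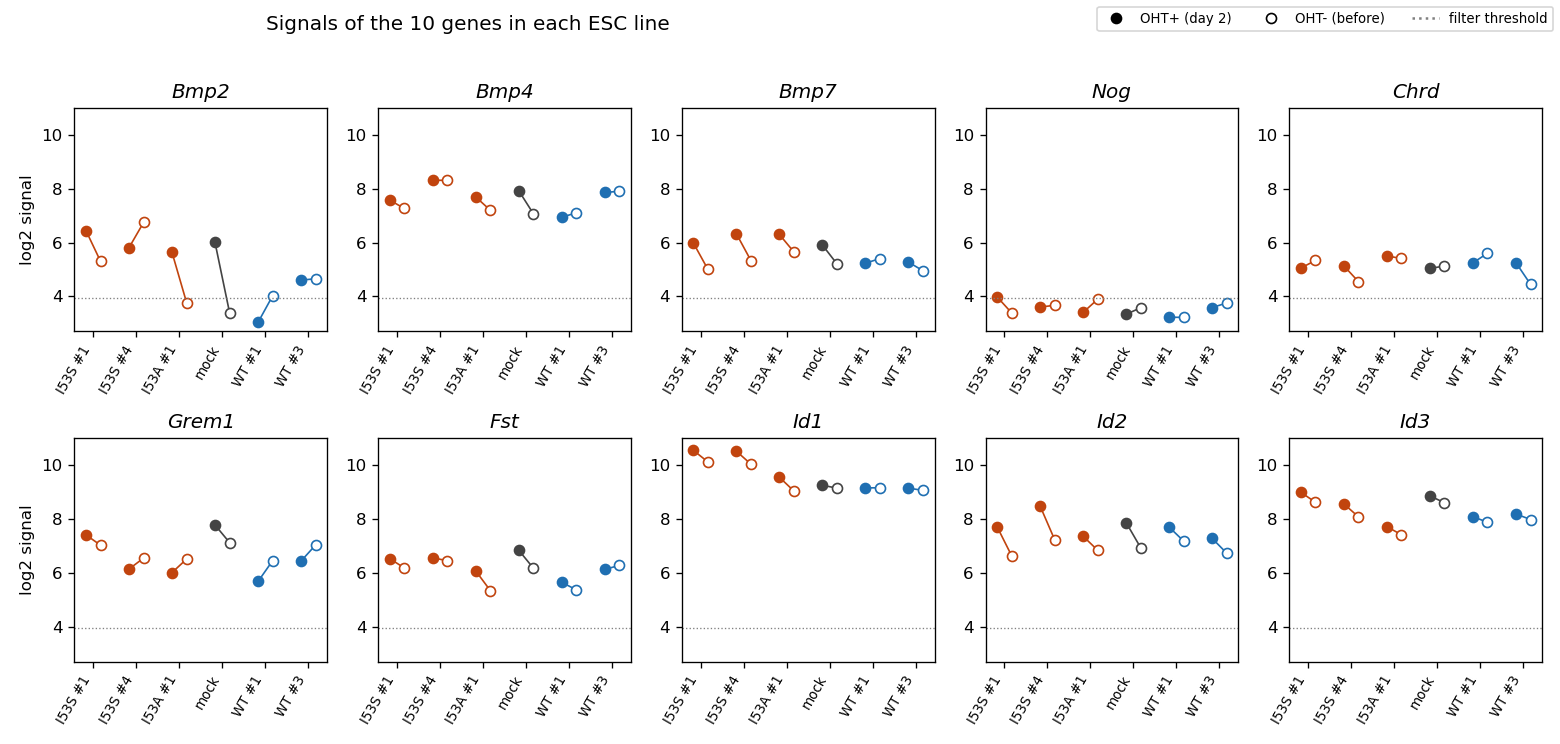
Log2 signal (vertical axis) of each gene, averaged over its probe sets, in the 6 lines (horizontal axis), with filled circles for OHT+ and open circles for OHT- of the same line, 1 array each; mutant lines in red, mock in grey, WT in blue. The dotted line marks the filter threshold of 3.94. *Bmp7*, *Id1* and *Id2* are higher with OHT in all 3 mutant lines, while *Nog* stays near or under the threshold in every line.

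Among the ligands, *Bmp7* was the only one called. *Bmp7* encodes a ligand that signals as a homodimer or as a heterodimer with BMP2 or BMP4. Averaged over its 3 probe sets, the log2 signal of *Bmp7* with and without OHT was 5.99 and 5.004 in I53S #1, 6.33 and 5.33 in I53S #4, 6.30 and 5.65 in I53A, 5.91 and 5.21 in the mock line, 5.24 and 5.41 in WT #1, and 5.28 and 4.95 in WT #3. With OHT every mutant line and the mock line lay above both WT lines, whereas the levels without OHT overlapped. The fitted change of *Bmp7* was 0.88 (SE 0.13, n = 3 lines, adjusted p = 0.0223, limma) in the mutant lines, 0.71 (adjusted p = 0.184) in the mock line and 0.08 (adjusted p = 0.961) in the WT lines. The difference between mutant and WT lines was 0.80 (95% confidence interval 0.28 to 1.33) and did not pass over all genes (adjusted p = 0.233). The *Bmp7* call was lost when any 1 mutant line was left out, with adjusted p of 0.12 without I53S #1, 0.113 without I53S #4 and 0.0721 without I53A, while its change stayed between 0.82 and 0.99.

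The probe sets of *Bmp7* did not move alike. Probe set 1432410_a_at had changes of 1.45, 0.96 and 1.14 in I53S #1, I53S #4 and I53A, 0.99 in the mock line, and 0.34 and 0.04 in WT #1 and WT #3. Probe set 1418910_at had changes of 0.97, 1.36 and 0.75 in the same mutant lines, 0.76 in mock, and 0.07 and 0.80 in the WT lines, so that WT #3 lay within the range of the mutants. Probe set 1435479_at, with the highest mean of the 3, had changes of 0.54, 0.69 and 0.08 in the mutant lines, 0.36 in mock, and -0.91 and 0.13 in the WT lines. Fitted as probe sets, 1432410_a_at was called in the mutant lines (1.18, SE 0.14, adjusted p = 0.0243, limma), and 1418910_at (1.03, adjusted p = 0.0609) and 1435479_at (0.44, adjusted p = 0.368) were not. With that probe set in place of the average, *Bmp7* was not called (0.44, adjusted p = 0.316, limma).

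**Figure D2:**
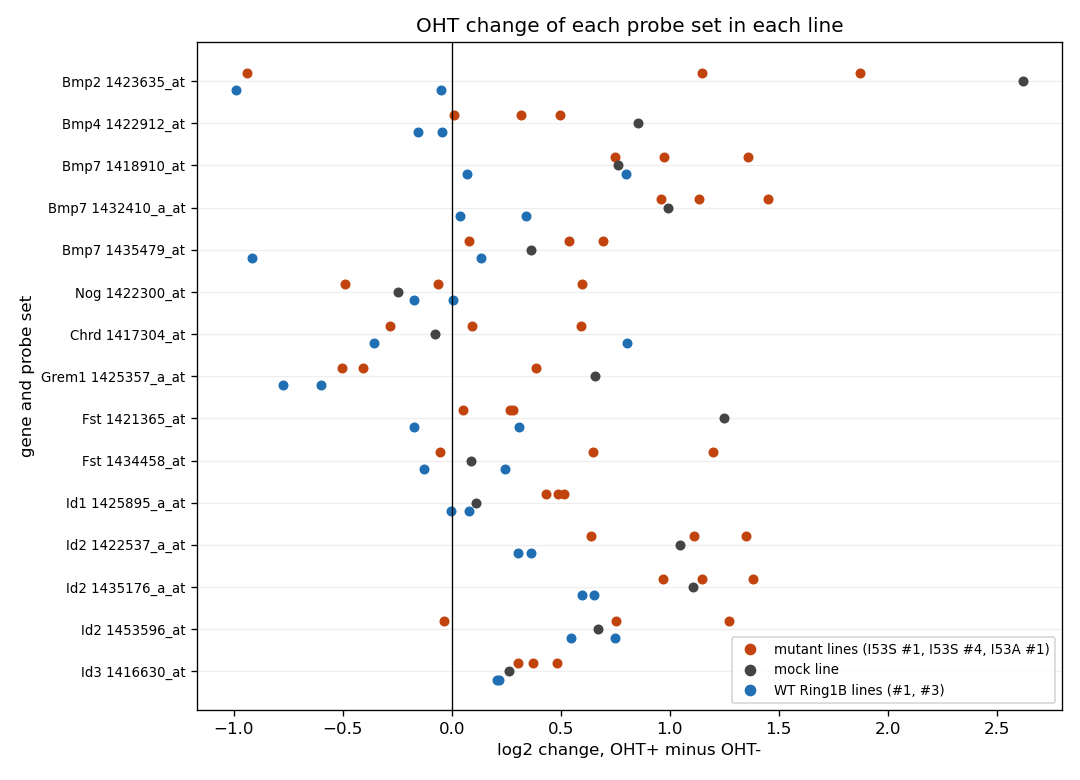
Change in log2 signal with OHT (horizontal axis, OHT+ minus OHT-) for each of the 15 probe sets (rows), 1 point per line; mutant lines in red, mock in grey, WT in blue. The points of *Bmp7* 1432410_a_at, *Id1* and *Id2* 1435176_a_at separate the mutant lines from the WT lines, and those of *Bmp2*, *Nog*, *Chrd* and *Fst* do not.

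*Bmp4*, the ligand used with LIF in serum-free ESC culture, had small changes in the mutant and WT lines. Its log2 signal with and without OHT was 7.59 and 7.27 in I53S #1, 8.32 and 8.31 in I53S #4, 7.70 and 7.21 in I53A, 7.93 and 7.08 in the mock line, 6.95 and 7.11 in WT #1, and 7.87 and 7.91 in WT #3. The changes of *Bmp4* in the mutant lines, 0.01 to 0.50, did not overlap those of the WT lines, -0.15 and -0.05, and the largest was that of the mock line. On the values as deposited they did overlap, since the change in I53S #4 was then -0.14, against -0.13 and -0.05 in the WT lines. *Bmp4* had a fitted change of 0.27 (SE 0.12, adjusted p = 0.235, limma) in the mutant lines, 0.86 (SE 0.20, adjusted p = 0.107) in the mock line and -0.10 (adjusted p = 0.934) in the WT lines. The difference from the WT lines was 0.37 for the mutant lines (95% confidence interval -0.09 to 0.83, adjusted p = 0.488) and 0.96 for the mock line (0.34 to 1.57, adjusted p = 0.214). *Bmp4* in the mock line passed under 2 alternatives, with adjusted p of 0.0464 under a stricter filter on the mean signal and 0.0127 with a trended and robust prior.

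*Bmp2*, the close relative of *Bmp4*, was the most variable of the 10 between lines. Its log2 signal with and without OHT was 6.45 and 5.31 in I53S #1, 5.81 and 6.75 in I53S #4, 5.64 and 3.77 in I53A, 6.01 and 3.39 in the mock line, 3.04 and 4.03 in WT #1, and 4.61 and 4.66 in WT #3. The highest signal without OHT was in I53S #4, the only mutant line in which *Bmp2* was lower with OHT. With OHT the mutant lines and the mock line lay between 5.64 and 6.45 and both WT lines below them. The fitted change of *Bmp2* was 0.69 (SE 0.53, adjusted p = 0.487, limma) in the mutant lines, 2.62 (SE 0.91, adjusted p = 0.201) in the mock line and -0.52 (adjusted p = 0.913) in the WT lines. I53A and mock without OHT and WT #1 with OHT were under the filter threshold of 3.94, so the size of these changes rests on signals at the low end of the array. *Bmp2* in the mock line passed with a trended and robust prior (adjusted p = 0.0361, limma).

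In levels with OHT, 3 of the 10 genes (*Bmp2*, *Bmp7* and *Id1*) were higher in every mutant line than in both WT lines, against 17.8% of all genes. Without OHT none of the 10 was, against 10.2% of all genes. In the change after OHT, 5 of the 10 (*Bmp4*, *Bmp7*, *Grem1*, *Id1* and *Id3*) were higher in every mutant line than in both WT lines, against 16.1% of all genes, and 0 were lower in every mutant line, against 15%. On the values as deposited 3 (*Bmp7*, *Grem1* and *Id1*) had the higher change in every mutant line, against 8.75% of genes, and 4 (*Bmp2*, *Bmp7*, *Chrd* and *Id1*) the higher level with OHT, against 20.7%. The genes are not independent of each other, and these counts are a description.

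None of the antagonists was called in any comparison. *Grem1*, which encodes a cystine-knot protein that sequesters BMP2, BMP4 and BMP7, had log2 signals with and without OHT of 7.41 and 7.02 in I53S #1, 6.14 and 6.55 in I53S #4, 6.01 and 6.51 in I53A, 7.78 and 7.12 in the mock line, 5.68 and 6.45 in WT #1, and 6.44 and 7.04 in WT #3. It was higher with OHT in I53S #1 and in the mock line and lower in the other 4 lines. *Grem1* had a fitted change of -0.18 (SE 0.19, adjusted p = 0.627, limma) in the mutant lines, 0.66 (adjusted p = 0.333) in the mock line and -0.69 (SE 0.23, adjusted p = 0.584) in the WT lines, and mock minus WT was 1.34 (95% confidence interval 0.36 to 2.32, adjusted p = 0.248).

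The fibroblast markers had their largest median changes in the same lines as *Grem1*. Their median change with OHT was 0.56 in I53S #1, 0.24 in I53S #4, 0.17 in I53A, 0.65 in the mock line, -0.01 in WT #1 and 0.07 in WT #3. All 16 markers were higher with OHT in I53S #1 and in the mock line, 15 in I53S #4, 10 in I53A, 8 in WT #1 and 10 in WT #3. *Thy1*, a surface marker of fibroblasts, was called higher in the mutant lines (0.68, adjusted p = 0.0186, limma) and in the mock line (1.32, adjusted p = 0.0366). It was the only 1 of the 16 called in either class, where 4.91% and 1.29% of all genes were called higher. Its changes of 0.62, 0.66 and 0.75 in I53S #1, I53S #4 and I53A did not follow the order of the marker medians. The part of these cells in the values of *Grem1* and of the other BMP genes was not tested.

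*Fst*, which encodes the activin and BMP binder Follistatin, has probe sets that disagreed. Probe set 1421365_at had changes of 0.05, 0.28 and 0.27 in I53S #1, I53S #4 and I53A, 1.25 in the mock line, and 0.31 and -0.17 in WT #1 and WT #3. Probe set 1434458_at had changes of 0.65, -0.05 and 1.20 in the mutant lines, 0.09 in mock, and 0.25 and -0.13 in the WT lines. The mock line had the largest change on the first and 1 of the smaller ones on the second. Averaged, *Fst* had a fitted change of 0.40 (SE 0.15, adjusted p = 0.189, limma) in the mutant lines, 0.67 (adjusted p = 0.242) in mock and 0.06 in the WT lines.

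*Chrd*, the gene of Chordin, had changes of -0.28, 0.59 and 0.09 in I53S #1, I53S #4 and I53A, -0.08 in the mock line, and -0.36 and 0.80 in WT #1 and WT #3. The WT lines spanned the whole range of the others. *Nog*, the gene of Noggin, read a log2 signal of 3.99 with OHT in I53S #1 and between 3.22 and 3.90 on the other 11 arrays, under the filter threshold. Its fitted change in the mutant lines was 0.01 (95% confidence interval -0.49 to 0.52). A change in *Nog* was not detectable at this signal.

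*Id1*, *Id2* and *Id3* had fitted changes above 0 in mutant, mock and WT lines, though on the values as deposited *Id1* and *Id3* were at -0.28 and -0.12 in the mock line, and *Id1* and *Id2* were called in the mutant lines. The log2 signal of *Id1*, which holds back differentiation factors of the helix-loop-helix family, with and without OHT was 10.55 and 10.12 in I53S #1, 10.52 and 10.04 in I53S #4, 9.55 and 9.04 in I53A, 9.26 and 9.15 in the mock line, 9.16 and 9.16 in WT #1, and 9.15 and 9.07 in WT #3. *Id1* thus had changes of 0.43 to 0.51 in the mutant lines and -0.01 and 0.08 in the WT lines, without overlap, and the mock line, at 0.11, lay next to the WT lines. The fitted change of *Id1* was 0.48 (SE 0.08, adjusted p = 0.0321, limma) in the mutant lines, 0.11 (adjusted p = 0.725) in the mock line and 0.04 (adjusted p = 0.971) in the WT lines. Mutant minus WT was 0.44 (95% confidence interval 0.11 to 0.77, adjusted p = 0.275).

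Before OHT, *Id1* was already about 1 log2 unit higher in both I53S lines than in the other 4 lines, which lay between 9.04 and 9.16. Over the 3 mutant lines this difference from WT was 0.62 (SE 0.33, adjusted p = 0.951, limma). The *Id1* call after OHT did not hold on the values as deposited (0.36, adjusted p = 0.069, limma), in the fit over probe sets (adjusted p = 0.0724), or when any line other than mock was left out. Its adjusted p was 0.0628 without WT #1 or without WT #3, 0.123 without I53S #1, 0.138 without I53S #4 and 0.14 without I53A, with changes of 0.46 to 0.50.

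*Id2*, which has roles in lymphoid and neural lineages, had the largest change of the 10 genes in the mutant lines. Averaged over its 3 probe sets, its log2 signal with and without OHT was 7.71 and 6.63 in I53S #1, 8.48 and 7.23 in I53S #4, 7.36 and 6.84 in I53A, 7.87 and 6.93 in the mock line, 7.70 and 7.18 in WT #1, and 7.28 and 6.73 in WT #3. *Id2* was higher with OHT in all 6 lines, and the change in I53A, 0.5245, lay between those in the WT lines, 0.5209 and 0.5508. The fitted change of *Id2* was 0.95 (SE 0.15, adjusted p = 0.0261, limma) in the mutant lines, 0.94 (SE 0.27, adjusted p = 0.144) in the mock line and 0.54 (SE 0.19, adjusted p = 0.607) in the WT lines. Mutant minus WT was 0.42 (95% confidence interval -0.18 to 1.02, adjusted p = 0.551). The *Id2* call held without I53A (1.17, adjusted p = 0.0406, limma) and was lost without I53S #1 (0.133), I53S #4 (0.111) and either WT line (0.053).

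The probe sets of *Id2* placed I53A differently. Probe set 1435176_a_at had changes of 1.38, 1.15 and 0.97 in I53S #1, I53S #4 and I53A, 1.10 in the mock line, and 0.65 and 0.60 in WT #1 and WT #3. Probe set 1422537_a_at had changes of 1.11, 1.35 and 0.64 in the mutant lines, 1.05 in mock, and 0.36 and 0.31 in the WT lines. On both the mutant and mock lines exceeded the WT lines, and both were called in the mutant lines (adjusted p = 0.0202 and 0.0404, limma). On probe set 1453596_at the changes were 0.75, 1.27 and -0.04 in the mutant lines, 0.67 in mock, and 0.55 and 0.75 in the WT lines, and the signals of I53A were under the filter threshold. Among all probe sets tested 2.58% were called in the mutant lines, and 3 of the 15 described here were.

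*Id3* had small changes above 0 in every line, except that the mock line was at -0.12 on the values as deposited. Its log2 signal with and without OHT was 8.99 and 8.62 in I53S #1, 8.56 and 8.08 in I53S #4, 7.72 and 7.41 in I53A, 8.86 and 8.60 in the mock line, 8.09 and 7.87 in WT #1, and 8.19 and 7.98 in WT #3. The changes were 0.30 to 0.48 in the mutant lines and 0.22 and 0.21 in the WT lines. *Id3* had a fitted change of 0.38 (SE 0.09, adjusted p = 0.062, limma) in the mutant lines, 0.26 (adjusted p = 0.405) in the mock line and 0.21 (adjusted p = 0.727) in the WT lines. It passed in the mutant lines under a stricter filter on the mean signal (adjusted p = 0.0219) and with a trended and robust prior (adjusted p = 0.00638).

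**Figure D3:**
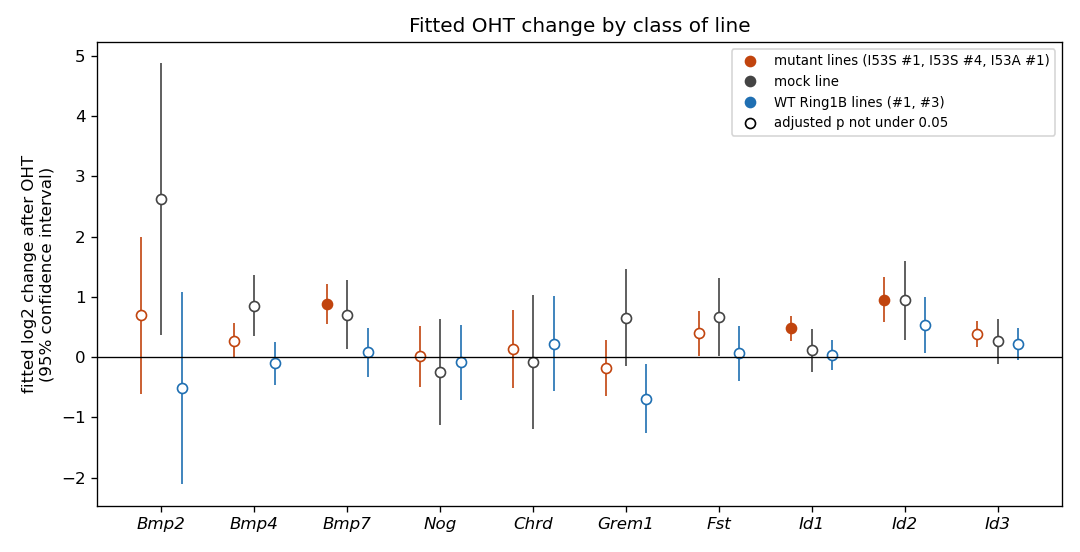
Fitted change in log2 signal after OHT (vertical axis) of the 10 genes (horizontal axis), with 95% confidence intervals, in mutant lines (red, 3 lines), the mock line (grey, 1 line, whose spread is taken from the other lines) and WT lines (blue, 2 lines). Filled points have an adjusted p under 0.05. These are *Bmp7*, *Id1* and *Id2* in the mutant lines, at 0.88, 0.48 and 0.95.

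The *Id* genes are regulated through GC-rich Smad elements. The 250 bases before the transcription start of *Id2*, called in the mutant lines, and of *Id3*, not called, are shown (RefSeq, GRCm38.p6). Elements farther from the start site would lie outside these windows and were not searched for. The motif in capitals is GGCGCC, the core of BMP-responsive elements, which reads the same on both strands. The short Smad element GTCT, or AGAC on the other strand, was counted as well and is not marked. *Id2* is on the minus strand at chr12:25096093-25096342 and *Id3* on the plus strand at chr4:136143572-136143821.
Id2: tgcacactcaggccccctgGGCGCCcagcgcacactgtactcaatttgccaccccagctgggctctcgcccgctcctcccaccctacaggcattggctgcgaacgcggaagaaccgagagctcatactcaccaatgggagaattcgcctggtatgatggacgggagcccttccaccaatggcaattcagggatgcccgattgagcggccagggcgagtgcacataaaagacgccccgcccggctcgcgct
Id3: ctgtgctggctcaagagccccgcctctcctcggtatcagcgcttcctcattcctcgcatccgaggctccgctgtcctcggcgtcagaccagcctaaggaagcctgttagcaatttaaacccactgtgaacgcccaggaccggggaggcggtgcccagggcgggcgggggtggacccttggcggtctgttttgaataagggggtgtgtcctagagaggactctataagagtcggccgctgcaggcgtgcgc
The *Id2* window holds GGCGCC once, starting 231 bases before the start site, and the *Id3* window holds none. GTCT or AGAC occurs 1 time in the *Id2* window and 2 times in that of *Id3*. The median over all windows is 2, and 82.9% of windows hold GTCT or AGAC. Each window has 18 CpG, against a median of 6 in the 32851 promoter windows of the table. Of those windows 9.6% hold GGCGCC. Windows were matched for 5 of the 10 genes, and the called genes *Bmp7* and *Id1* had none. GGCGCC also occurred once each in those of *Chrd* and *Grem1* and not in that of *Bmp4*. GTCT or AGAC occurred 1, 4 and 1 times in those of *Chrd*, *Grem1* and *Bmp4*. These matches are a description of the letters, and *Chrd* and *Grem1* were not called in any class of lines.

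Between classes, the mock line and the mutant lines shared the direction of change for the 3 ligands, *Fst* and *Id2*. For *Id1* and *Id3* they shared it after quantile normalization or with arrays centred on their medians, and not on the values as deposited. Yet no gene of the 10 was called for mock, for WT, or for any difference between classes. Over all genes, 1.67% were called in the mock line (1.29% higher), and 0% in each of the other 5 comparisons (limma). At an unadjusted p under 0.05, 19.9% of genes passed for mock and 7.61% for WT. For the differences between classes the shares were 12.6% (mutant minus WT), 14.4% (mock minus WT) and 8.05% (mock minus mutant), and before OHT 5.25% passed for the mutant lines against the WT lines.

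Of the other BMP pathway genes, 53 were tested, and in the mutant lines 5 were called higher and 0 lower, where 4.91% of all genes were called higher and 1.55% lower. Among 12 other ligands 3 were called higher (*Bmp6*, *Gdf10* and *Bmp8b*), 5 had fitted changes above 0, and the median was -0.07. *Bmp6*, a ligand of the same subgroup as *Bmp7*, had log2 signals with and without OHT of 5.70 and 4.61 in I53S #1, 6.25 and 4.39 in I53S #4, 5.64 and 4.50 in I53A, 6.01 and 4.33 in the mock line, 4.08 and 4.73 in WT #1, and 5.03 and 5.49 in WT #3. It was higher with OHT in all mutant lines and the mock line and lower in both WT lines. *Bmp6* had a fitted change of 1.37 (SE 0.17, adjusted p = 0.0137, limma) in the mutant lines, 1.68 (adjusted p = 0.0639) in the mock line and -0.55 (adjusted p = 0.627) in the WT lines, and mutant minus WT was 1.92 (SE 0.27, adjusted p = 0.114).

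*Gdf10*, which encodes BMP3B, rose by 1.14 (SE 0.13, adjusted p = 0.0116, limma) in the mutant lines, with changes of 1.17, 0.86 and 1.39 in I53S #1, I53S #4 and I53A, 0.67 in the mock line, and 0.20 and -0.03 in the WT lines. *Bmp8b*, a ligand known from the germ line, rose by 0.84 (SE 0.16, adjusted p = 0.0418), with 0.61 in the mock line and 0.26 and 0.69 in the WT lines, so that WT #3 exceeded I53S #4 at 0.53. Both were dim, with no log2 signal above 5.29.

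*Smad6*, an inhibitory Smad that is itself induced by BMP signals, was the only one of 8 Smad and Smurf genes called. Its log2 signal with and without OHT was 7.55 and 6.74 in I53S #1, 7.62 and 7.04 in I53S #4, 7.35 and 6.86 in I53A, 7.14 and 6.23 in the mock line, 7.17 and 7.30 in WT #1, and 6.95 and 6.67 in WT #3. *Smad6* rose by 0.63 (SE 0.12, adjusted p = 0.041, limma) in the mutant lines, and the fitted change was 0.92 (adjusted p = 0.098) in the mock line. The other inhibitory Smad, *Smad7*, had a fitted change of -1.09 (adjusted p = 0.0902, limma) in the mock line, with changes of 0.39, 0.22 and -0.22 in I53S #1, I53S #4 and I53A and 0.23 and 0.19 in the WT lines.

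Of 15 further extracellular inhibitors and modulators, *Tll1*, which encodes a metalloprotease of the family that cleaves Chordin, was called in the mutant lines (0.97, SE 0.13, adjusted p = 0.0171, limma). Its changes were 0.98, 1.25 and 0.66 in I53S #1, I53S #4 and I53A, 1.34 in the mock line, and -0.01 and 0.05 in the WT lines. Without OHT its log2 signals were 3.64, 3.24 and 3.28 in the mutant lines, and in the WT lines they never exceeded 3.65, all under the filter threshold. Clearly above it were only both I53S lines with OHT and the mock line, with I53A with OHT at the threshold, and the size of its change is set against signals at the low end of the array. None of 11 receptor and co-receptor genes and none of 7 other targets was called. The smallest p-values belonged to *Hjv*, a BMP co-receptor (0.51, adjusted p = 0.134, limma), and *Msx1*, a homeobox target of BMP signals (0.81, adjusted p = 0.0538).

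**Figure D4:**
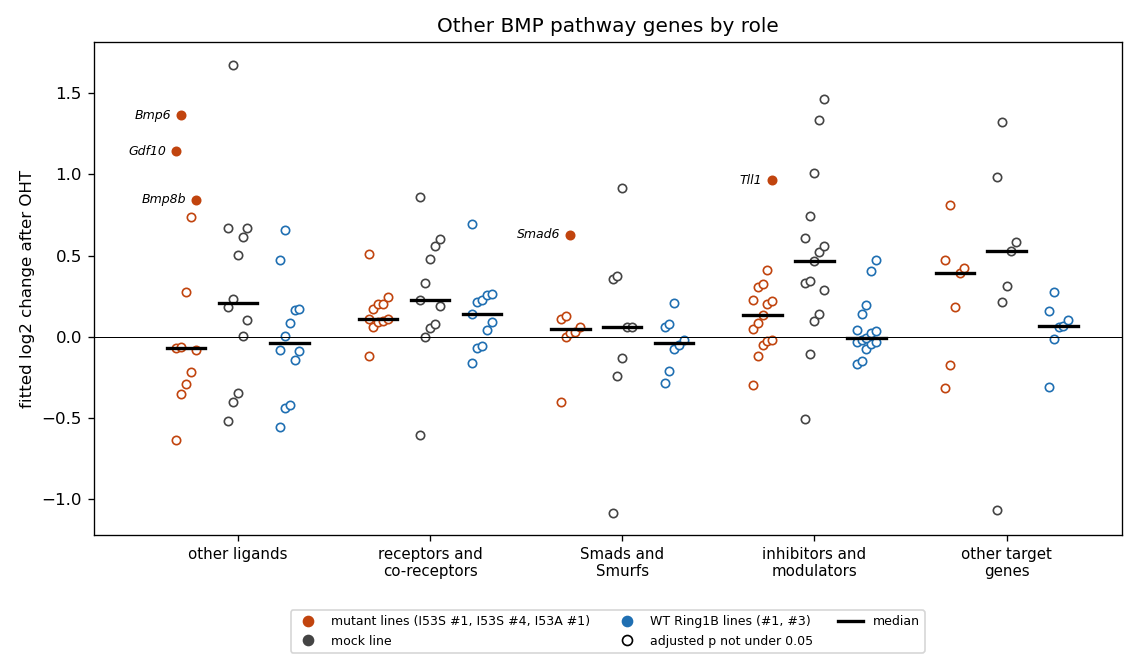
Fitted change in log2 signal after OHT (vertical axis) of 53 other BMP pathway genes by role (horizontal axis), 1 point per gene, in mutant lines (red), the mock line (grey) and WT lines (blue); bars are medians and filled points have an adjusted p under 0.05. The 5 filled points, *Bmp6*, *Gdf10*, *Bmp8b*, *Smad6* and *Tll1*, are all in the mutant lines and above 0.

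Of 12 primitive endoderm markers 2 were called higher in the mutant lines and 0 lower, where 4.91% and 1.55% of all genes were. Fitted changes were above 0 for 8 of the 12 in the mutant lines and for 10 in the mock line. The 12 markers had a median change with OHT of 0.35 in I53S #1, 0.17 in I53S #4, 0.44 in I53A, 0.65 in the mock line, and -0.03 and -0.02 in WT #1 and WT #3. Their summed linear signal ranged from 1628 to 3331 in the mutant lines, was 2303 and 1336 with and without OHT in the mock line, and ranged from 1310 to 1808 in the WT lines. *Gata6*, a defining factor of that lineage, rose by 0.52 (adjusted p = 0.0297, limma) in the mutant lines and by 1.80 in the mock line. *Col4a1*, a basement membrane collagen, rose by 0.56 (adjusted p = 0.0286) in the mutant lines. *Gata4* did not pass in the mutant lines (-0.19, adjusted p = 0.581). I53S #4 had the smallest of the mutant medians. Among the mutant lines it also had the smallest changes of *Bmp2*, *Bmp4* and *Fst*. Its changes of *Bmp7*, *Chrd*, *Id2* and *Id3* were the largest of the mutant lines after quantile normalization. On the values as deposited I53S #1 exceeded I53S #4 for *Bmp7* (0.91 against 0.78) and *Id3* (0.35 against 0.32). On *Bmp7* probe set 1432410_a_at I53S #4 had the smallest change of the mutant lines, 0.96. The part of such cells in the BMP values was not tested.

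By likeness over the 12 arrays, the genes closest to *Bmp7* were *Prtn3* (Pearson r = 0.985), *Kcnk6* (0.977) and *Tmem163* (0.952). Those closest to *Id1* were *Dap* (0.924), *Dusp8* (0.923) and *Snai3* (0.912), and those closest to *Id2* were *Tbx4* (0.957), *Rbms1* (0.931) and *Ephx4* (0.912). The arrays of a line share their culture history, and the correlations are a description. *Kcnk6*, for example, had changes of 1.05, 1.04 and 0.98 in I53S #1, I53S #4 and I53A, 0.99 in the mock line, and -0.11 and 0.23 in WT #1 and WT #3, the same order of classes as *Bmp7*. *Dap* shared with *Id1* the higher signal of both I53S lines before OHT, above all 4 other lines. In the change with OHT they differed. *Dap* had its largest change in the mock line (0.57, against 0.31 to 0.46 in the mutant lines), where *Id1* had 0.11.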

How the data were processed

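RNA of 6 ESC lines was measured on Affymetrix mouse genome arrays, 2 arrays per line. The authors deposited log2 signals, which the submitters' processing notes credit to RMA in Affymetrix Expression Console, without a version in the sources used here, whereas the methods describe MAS5 signals and quantile normalization. The values as deposited had array medians of 4.66 to 5.67 and between 2815 and 3553 distinct levels per array, in steps of at most 0.07 next to any value used here, and no detection call accompanied them. They were quantile normalized here. This was made the main setting with those medians known.

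The table holds 45101 probe sets, 64 of them controls that were dropped. Of the rest, 34945 have 1 gene symbol, 932 several and 9160 none listed, and only the first were named. Symbols were matched to the RefSeq gene table for 18145 genes and not for 48. A probe set entered when its highest signal passed 3.94, the 30th percentile of all signals. This left 37446, of which 30374 with 1 symbol were averaged per gene. All arrays were fitted with limma 3.58.1 in R 4.3.3 (lmFit, eBayes, two-sided; 3 residual and 2.79 prior degrees of freedom). Cell line was a blocking factor, and each class had its own OHT effect. Benjamini-Hochberg adjustment ran over all genes, or all probe sets, with calls under 0.05. The mock class has 1 line, whose spread is taken from the others. P-values measure the spread between these lines, 1 array each, and their number limits the precision. Before OHT, mutant and WT lines were compared in a fit of the OHT- arrays.

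Arrays were paired by cell line: after removal of class means, both arrays of a line correlated at 0.27 to 0.43 over genes. No array was a copy of another. The fit was tested on simulated data.

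Named are all 10 genes, and per called gene the 3 genes of highest Pearson r. In each role of the pathway up to 4 called genes with the largest change are named, or, where no gene was called, up to 2 with the smallest p-values. *Thy1*, *Gata6* and *Gata4* were named after their values were seen. The markers *Klf4* and *Col4a1*, both called in the mutant lines, are outside these rules as well. The genes and lists were chosen with earlier results of these data known. Alternatives were the values as deposited, arrays centred on their medians, other filters, a trended and robust prior, the brightest probe set, no block, and each line left out. Promoter windows (250 bases before the start) came from RefSeq, GRCm38.p6.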

Additional observations from a re-analysis of the deposited data

Results flagged for a closer look

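*Bmp4* moved in opposite directions in the 2 classes: it was higher with OHT in all 3 mutant lines, by 0.01 to 0.50 in log2 signal, and lower in both WT lines, by -0.15 and -0.05. The difference of 0.37 (mutant minus WT, SE 0.19) was not past the threshold in the test of the difference itself (adjusted p = 0.488, limma). In I53S #4 and in WT #3 the changes, 0.01 and -0.05, were smaller in size than 0.07. That is the largest step between neighbouring array values next to any value of the 10 genes. On the values as deposited the change in I53S #4 was -0.14, so the opposite directions do not hold there. Groups of 3 lines or fewer are too small for a test of single outlying lines.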

How the results depend on the processing

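Of 849 values of the 10 genes under the alternatives, 824 kept their side of the threshold (45 of them with another sign, uncalled both ways), 17 lost a call and 8 gained one, and none was called in opposite directions. Of the 10 genes, 3 were called in the mutant lines. Without the replicate block, which leaves out the pairing by line, 1 was (*Bmp7*, adjusted p = 0.0376; *Id1* 0.554, *Id2* 0.119), and with each line left out between 0 and 3 were: 0 without I53S #1 or I53S #4, 1 without I53A (*Id2*), 1 without either WT line (*Bmp7*), and 3 without mock. In the mock line 0 were called, but 2 with a filter on the mean signal (*Bmp4* and *Id2*) and 3 with a trended and robust prior (*Bmp2*, *Bmp4* and *Id2*). With that prior 1 was called for mock minus WT (*Bmp4*, adjusted p = 0.0394). Of the 15 probe sets 3 were called in the mutant lines, 5 with the filter on the mean, 6 with the trended and robust prior, 1 without the replicate block, and 0 to 3 with a line left out (0 whenever that line was not mock). With the filter on the mean *Bmp7* lost its call in the mutant lines (adjusted p = 0.05, limma, not under the threshold), and *Id1*, *Id2* and *Id3* were called. The causes were not tested.

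Counts over all genes moved too. In the mutant lines 1062 were called, 1777 with the filter on the mean, 2219 with the trended and robust prior, 563 without the replicate block, and 161, 194 and 153 without I53S #1, I53S #4 and I53A. In the mock line 275 were called (212 higher and 63 lower), 883, 1340 and 97 under the same 3 settings in that order, 0 without any 1 other line, and 922 on the values as deposited (175 higher and 747 lower). Of the differences, where 0 were called, mutant minus WT gave 47 with the filter on the mean and 272 with the trended and robust prior, and mock minus WT gave 17 and 453. Mutant minus WT before OHT gave 41 on the values as deposited. Deposited values moved the median of all genes by -0.13 in the mutant lines, by -0.34 in the mock line and by 0.28 for mutant minus WT before OHT, where the block could not be applied. Low signals limited *Nog* and parts of *Bmp2* and *Id2*.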
